A study of Mus musculus with 44 samples.

Results

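The interferon-stimulated genes followed here in mouse kidney were Irf7, Irf1, Isg15, Ifit1, Ifit3, Oasl2, Bst2, Irgm1 and Gbp2, taken by name as members of the interferon response. They are 9 of the 30284 genes for which the kidney table of this series holds a transcript, and all 9 were among the 12874 genes tested, those averaging 1 TPM or more over all libraries (TPM, a transcript's share of the library, scaled to length). The study profiled polyadenylated kidney RNA of mice lacking the clock gene Bmal1 (Arntl), called KO, and of wild-type mice, called WT. Both groups were of the strain 129SV, 8 to 12 weeks old after birth, and fed at night only. Kidneys were taken at 6 zeitgeber times (ZT, hours after lights on), ZT0, ZT4, ZT8, ZT12, ZT16 and ZT20, with 2 libraries, A and B, per genotype and time, giving 12 groups and 24 libraries. The labels do not say whether the libraries of a group come from separate animals, so p-values measure the spread between these libraries only, which may be technical.

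Interferons are secreted proteins that cells release on sensing foreign nucleic acid or on immune activation. Type I interferons signal through Ifnar1 and Ifnar2 and interferon gamma through Ifngr1 and Ifngr2, and both routes activate JAK kinases and STAT factors. Most cells keep a low tonic level of the induced genes without infection. BMAL1 is a core activator of the circadian clock and binds E-boxes.

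The promoters of these genes are shown because the core letters of the interferon-stimulated response element stand in most of them. Windows of 250 bases before to 50 bases after the start site were taken from RefSeq on GRCm38.p6 (32851 windows, 10 of them for the 9 members, Irf1 having 2). Both strands were searched for GAAANNGAA, the core of the interferon-stimulated response element, for TTCNNNGAA, a gamma-activated site, and for the E-box CACGTG. GAAANNGAA stood in the window of 6 of 9 members (Isg15, Ifit1, Ifit3, Bst2, Irgm1 and Gbp2), against 8.56% of all windows. TTCNNNGAA stood in that of 2 members (Irf1 and Bst2), against 8.3% of all windows. CACGTG, the 1 E-box spelling searched, stood in 0 of the 10 windows, against 7.15% of all, and 10 windows are too few to read a difference from. In the stretches below, printed 5′ to 3′ on the gene's strand, capitals mark the matches to the first 2 motifs, a match to GAAANNGAA on the other strand reading TTCNNTTTC.
Isg15: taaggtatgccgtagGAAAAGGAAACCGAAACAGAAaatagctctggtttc
Ifit1: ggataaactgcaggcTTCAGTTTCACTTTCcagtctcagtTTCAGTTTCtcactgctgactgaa
Ifit3: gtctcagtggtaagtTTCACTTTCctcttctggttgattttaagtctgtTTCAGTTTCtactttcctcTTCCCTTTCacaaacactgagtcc
Bst2: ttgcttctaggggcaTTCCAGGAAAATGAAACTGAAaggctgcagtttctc
Irf1: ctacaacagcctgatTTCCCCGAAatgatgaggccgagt

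These stretches lie at chr4:156200861-156200911 (Isg15, minus strand), chr19:34640765-34640828 (Ifit1, plus), chr19:34583359-34583450 (Ifit3, plus), chr8:71537573-71537623 (Bst2, minus) and chr11:53769909-53769947 (Irf1, plus). Isg15 and Bst2 hold runs of overlapping matches, 3 and 2 of GAAANNGAA in a row, and in Bst2 the first of these shares letters with the match to TTCNNNGAA. Ifit1 and Ifit3, both on chromosome 19, hold 3 matches each, all on the strand opposite to the gene. Irgm1 holds 2 overlapping matches that begin 30 and 24 bases before its start, and Gbp2 holds 1 that begins 58 bases before. These positions count from the RefSeq start, and both stretches overlap exons of the GENCODE M21 annotation, so they are not printed. The windows of Irf7 and Oasl2 held no match to any of the 3 motifs. A match describes letters in a window and is not evidence of binding.

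The clock genes of 1 library went against its genotype label. In the library labelled KO ZT4 A, the levels of Cry1 (1.03 TPM, against 11.5 to 17.8 in the other KO libraries) and Nr1d1 (23.8 TPM, against 1.23 to 3.46) were near those of the WT libraries of that time, which held 1.2 and 0.845 TPM of Cry1 and 22 and 33 TPM of Nr1d1. Both are clock repressors. The targeted gene Arntl does not check the labels here, since its transcripts stood at 4.19 to 6.28 TPM in KO, highest in KO ZT4 A, within the WT range of 0.295 to 12.9. The library was kept under its label, and values without it are given where they change a call of a member. The genes of the pathway and marker lists below were not recounted without it. Genes reaching at least 1 TPM numbered 12398 to 12911 per library, and TPM keeps no sequencing depth, so no counting error can be given. The KO libraries had a broad upward shift. Over all genes tested, the log2 change, KO minus WT, had a median of 0.148 as deposited, 0.083 after scaling to the total without mitochondrial genes, and 0.002 with median-of-ratios scaling, in which the typical gene is equal between libraries. A small change in 1 direction is therefore read against that median.

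All 9 genes were detected in every library, at low to moderate levels that differed little between genotypes. In order of mean over 24 libraries, Irgm1 stood at 21.5 TPM, Bst2 at 15.5, Ifit3 at 11.9, Irf1 at 8.49, Irf7 at 6.62, Oasl2 at 4.72, Gbp2 at 4.55, Isg15 at 3.95 and Ifit1 at 1.58. Neighbours in this order kept it in 24 of 24 libraries for Irgm1 over Bst2, Bst2 over Ifit3, Irf7 over Oasl2 and Isg15 over Ifit1. The order held in 22 libraries for Ifit3 over Irf1 and for Irf1 over Irf7. It was not stable for Oasl2 over Gbp2 (16 of 24 libraries) or Gbp2 over Isg15 (18 of 24). TPM is scaled to transcript length, so these levels can be set side by side, but part of the sum came from transcripts annotated as not coding. Such transcripts carried 77.3% of Oasl2, of which a single transcript annotated for nonsense-mediated decay carried 56.4%, and 59.2% of Irf7, against at most 4.99% in the other 7 genes.

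**Figure D1:**
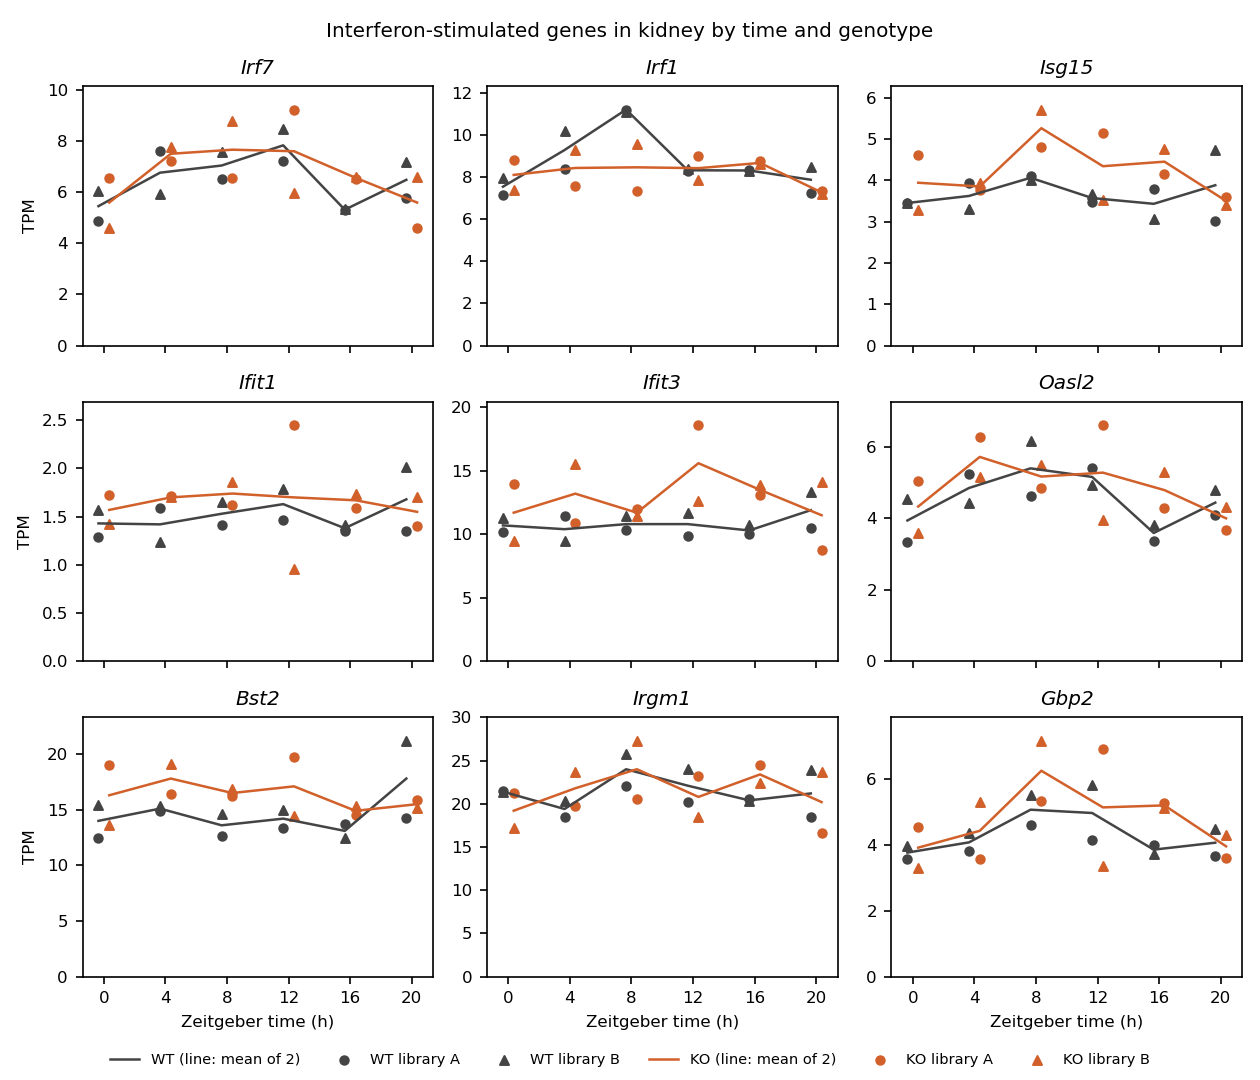
Level of each gene in TPM (vertical axis, from 0) by zeitgeber time in hours (horizontal axis), with 1 point per library and a line through the mean of the 2 libraries, WT in grey and KO in orange. WT and KO points overlap in every panel, Irf1 in WT stands highest at ZT8 (11.2 and 11.1 TPM), and the libraries of KO ZT12 lie far apart for Ifit1 (2.45 and 0.953 TPM).

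The first comparison asked whether loss of Bmal1 changed the level of these genes over the day. With time as a 6-level factor, limma on log2(TPM + 0.1) called 0 of the 9 members at an adjusted p under 0.05, and 3 had an unadjusted p under 0.05. Over all genes tested the same test called 60.9%, of which 50.9% of the genes were higher and 10% lower in KO. The members' median log2 change was 0.109, beside 0.148 for all genes. As deposited, 8 of 9 changes were above 0, with 6 of 9 after scaling without mitochondrial genes and 3 of 9 under median-of-ratios scaling, where the members' median was -0.03. The standard errors of the members ran from 0.062 to 0.113 log2 units with a median of 0.09, against a median of 0.065 over all genes. In bulk tissue, fewer cells of a type and less RNA per cell cannot be told apart.

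Among the transcription factors, the ranges of Irf7 and Irf1 overlapped between genotypes. Irf7 (ENSMUSG00000025498, chr7:141262706-141266481, minus strand), the factor that amplifies type I interferon production, had 4.88, 6.28 and 8.48 TPM as lowest, median and highest of the 12 WT libraries and 4.6, 6.6 and 9.24 in the 12 KO libraries. Its log2 change was 0.05 (SE 0.09, 95% interval -0.14 to 0.24, adjusted p 0.656), and -0.1 under median-of-ratios scaling. With protein-coding transcripts only, the smaller part of its sum, it was 0.27 with a wider spread (SE 0.2, adjusted p 0.238). Irf1 (ENSMUSG00000018899, chr11:53770014-53778374, plus strand), a factor induced early by interferon gamma, had 7.15, 8.34 and 11.2 TPM in WT and 7.2, 8.24 and 9.59 in KO. The KO values lay within the WT range, and 3 WT libraries, both of ZT8 and B of ZT4, lay above every KO library. The log2 change of Irf1 was -0.08 (SE 0.06, interval -0.21 to 0.05, adjusted p 0.274) as deposited. Under median-of-ratios scaling it was -0.23 (SE 0.06) and passed the test (adjusted p 0.00244). In that scaling 44.3% of all genes were called, 22.1% as higher and 22.2% as lower in KO, so the call of Irf1 depends on the scaling.

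Among the antiviral effectors, Ifit3, Isg15 and Bst2 came nearest to a call. Ifit3 (ENSMUSG00000074896, chr19:34583531-34588731, plus strand), which works with Ifit1 in binding viral RNA, had 9.48, 10.6 and 13.3 TPM in WT and 8.77, 12.9 and 18.6 in KO. KO held both the lowest and the highest library, and the WT range lay inside that of KO. The log2 change was 0.22 (SE 0.10, interval 0.02 to 0.42, adjusted p 0.0516), with KO higher at 5 of 6 times, and without the library labelled KO ZT4 A it passed (0.25, adjusted p 0.0364). Isg15 (ENSMUSG00000035692, chr4:156199424-156200818, minus strand), a ubiquitin-like protein attached to other proteins during the response, had 3.02, 3.57 and 4.73 TPM in WT and 3.27, 4.04 and 5.71 in KO. The ranges overlapped over most of their length. The log2 change was 0.19 (SE 0.08, interval 0.01 to 0.36, adjusted p 0.0575). Bst2 (ENSMUSG00000046718, chr8:71534255-71537456, minus strand), also called tetherin, which holds budding virus at the cell surface, had 12.5, 14.5 and 21.2 TPM in WT and 13.6, 16 and 19.7 in KO. Its highest library was WT ZT20 B, above all KO libraries. The log2 change was 0.16 (SE 0.08, interval 0.01 to 0.32, adjusted p 0.0634).

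These 3 genes shared libraries that decided the call. All 3 passed without WT ZT20 B (adjusted p 0.0235 for Ifit3, 0.00642 for Isg15 and 0.00469 for Bst2), without KO ZT0 B (0.0219, 0.031 and 0.0364) and without KO ZT12 B (0.0478, 0.0335 and 0.043). The first of these lay above the other library of its group for all 9 members, and the KO libraries lay below theirs for all 9. Ifit3 alone passed without WT ZT0 B (0.0484), WT ZT8 B (0.0484) or KO ZT20 A (0.00796), and Isg15 alone without WT ZT4 A (0.0439). Isg15 and Bst2 passed without KO ZT20 B (0.0402 and 0.0388). Under median-of-ratios scaling their changes were 0.08 for Ifit3, 0.04 for Isg15 and 0.02 for Bst2, with adjusted p-values of 0.501, 0.688 and 0.866.

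The other effectors and the GTPases lay further from a call. Ifit1 (ENSMUSG00000034459, chr19:34640871-34650009, plus strand), which binds viral RNA lacking the host cap methylation, had 1.24, 1.44 and 2.02 TPM in WT and 0.953, 1.7 and 2.45 in KO. Oasl2 (ENSMUSG00000029561, chr5:114896936-114912234, plus strand), of the oligoadenylate synthetase family, had 3.34, 4.58 and 6.18 TPM in WT and 3.6, 4.95 and 6.61 in KO. Their log2 changes were 0.11 (SE 0.11, interval -0.13 to 0.34) and 0.09 (SE 0.09, interval -0.10 to 0.29), with adjusted p-values of 0.412 and 0.408, and both were below 0 under median-of-ratios scaling (-0.03 and -0.05). Irgm1 (ENSMUSG00000046879, chr11:48861968-48871683, minus strand), an immunity-related GTPase that regulates related GTPases on membranes, had 18.5, 20.9 and 25.8 TPM in WT and 16.6, 21.8 and 27.3 in KO. Gbp2 (ENSMUSG00000028270, chr3:142620602-142638008, plus strand), a guanylate-binding protein acting on pathogen vacuoles, had 3.56, 4.06 and 5.8 TPM in WT and 3.28, 4.83 and 7.15 in KO. In all 4 genes the WT and KO ranges overlapped, and for Ifit1, Irgm1 and Gbp2 the KO range enclosed that of WT. Irgm1 had a log2 change of 0.00 as deposited (SE 0.07, interval -0.15 to 0.15, adjusted p 0.988) and was at -0.15 under median-of-ratios scaling (adjusted p 0.0897). Gbp2 had 0.13 (SE 0.11, interval -0.09 to 0.35, adjusted p 0.3), and -0.02 in that scaling.

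**Figure D2:**
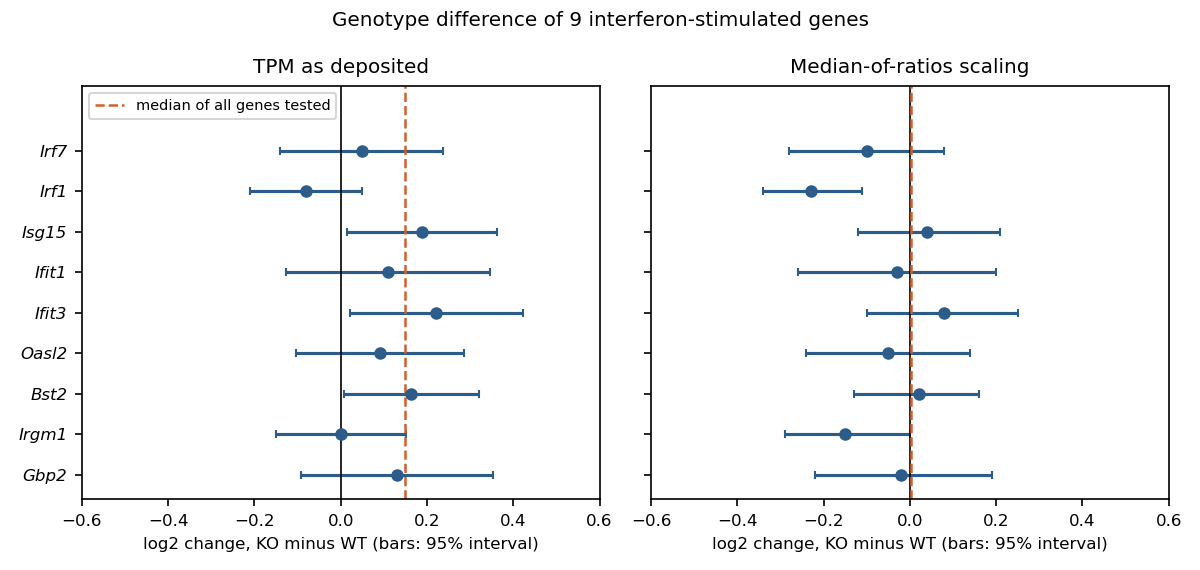
Log2 change between genotypes, KO minus WT (horizontal axis), of each gene (vertical axis) with its 95% interval, from TPM as deposited (left) and after median-of-ratios scaling (right), the dashed line marking the median of all genes tested (0.148 and 0.002). Points lie around the dashed line in both panels, and only Irf1 under median-of-ratios scaling (-0.23) is past the threshold.

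The second comparison asked whether these genes follow a daily rhythm, tested as a 24-hour cosine in each genotype. In WT, limma called 0 of 9 members (1 at an unadjusted p under 0.05), beside 13.7% of all genes tested, and in KO 0 of 9 (1 unadjusted), beside 3.64%. The KO share is 468 genes, which became 12 in the fit of the KO libraries alone and 272 without KO ZT0 B. The difference in rhythm between genotypes was called for 0 of 9 members (0 unadjusted), beside 0.629%, with a smallest adjusted p of 0.616. A genotype difference that varied with time in any form was called for 0 of 9 (0 unadjusted, smallest adjusted p 0.582), beside 0.179% of all genes. That share is 23 genes, which became 228 without KO ZT4 B, 112 without KO ZT12 B, 43 without KO ZT16 B and 39 without the library labelled KO ZT4 A, with 0 members called in each.

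Irf1 in WT lay at the threshold. Its WT libraries held 7.15 and 7.94 TPM at ZT0, 8.39 and 10.2 at ZT4, 11.2 and 11.1 at ZT8, 8.27 and 8.36 at ZT12, 8.32 and 8.3 at ZT16 and 7.26 and 8.49 at ZT20. Both ZT8 libraries stood above every other WT library. The fitted cosine spanned 0.43 log2 units from trough to peak (SE 0.12), with its peak at 7.95 h (SE 1.08) and an adjusted p of 0.0518. It passed in the fit of the WT libraries alone (adjusted p 0.0484), under median-of-ratios scaling (0.0158), after scaling without mitochondrial genes (0.036), and without the library labelled KO ZT4 A (0.0471). The fit of WT alone called 22.1% of all genes. The rhythm of Irf1 passed in 8 of the 24 fits that left out 1 library and missed in 16, with adjusted p-values of 0.177 without WT ZT8 A, 0.169 without WT ZT8 B and 0.111 without WT ZT20 A, and it missed with no filter on low values (0.0869).

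In KO the same gene was flatter in its group means. KO libraries held 8.81 and 7.4 TPM at ZT0, 7.59 and 9.27 at ZT4, 7.33 and 9.59 at ZT8, 8.98 and 7.86 at ZT12, 8.74 and 8.61 at ZT16 and 7.34 and 7.2 at ZT20. At ZT4 and at ZT8 1 KO library lay above 9 TPM and the other below 8. The fitted cosine in KO spanned 0.15 (SE 0.12, adjusted p 0.709). The test of the difference in rhythm gave an adjusted p of 0.616, so a difference between the genotypes was not shown.

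Irf7, Oasl2 and Gbp2 had fitted peaks between 7.88 and 10.4 h in both genotypes (SE 1.4 to 2.1 h), without passing. From trough to peak Irf7 spanned 0.38 log2 units (SE 0.19), with its peak at 9.1 h in WT and 0.53 (SE 0.19) at 8.99 h in KO, with adjusted p-values of 0.329 and 0.198. With protein-coding transcripts only, Irf7 spanned 1.02 in WT and 0.5 in KO (adjusted p 0.135 and 0.648). Oasl2 spanned 0.45 (SE 0.19) at 7.88 h in WT and 0.41 (SE 0.19) at 8.02 h in KO (adjusted p 0.226 and 0.358). Gbp2 spanned 0.40 (SE 0.21) at 9.7 h in WT and 0.55 (SE 0.21) at 10.4 h in KO (adjusted p 0.397 and 0.253), and its KO rhythm passed without KO ZT12 B (0.0284). The other 5 genes (Isg15, Ifit1, Ifit3, Bst2 and Irgm1) spanned at most 0.19 in WT, for Bst2, and at most 0.41 in KO, for Isg15. Among them Isg15 (7.33 h in WT, 9.88 h in KO) and Irgm1 (10.1 and 10.5 h) had fitted peaks at similar hours. Such hours were thus not particular to Irf7, Oasl2 and Gbp2.

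At single times limma called 0 of 54 differences between genotypes (9 members at 6 times), with 1 at an unadjusted p under 0.05. Of all genes, 13.4% were called at ZT0, 0% at ZT4, 14.6% at ZT8, 38.2% at ZT12, 21.5% at ZT16 and 3.72% at ZT20. The share at ZT4 rested on the library labelled KO ZT4 A, without which 11.6% of all genes and 0 members were called there. The 1 unadjusted value was Irf1 at ZT8, where KO lay below WT by a log2 change of -0.41 (SE 0.14, adjusted p 0.0605), with both KO libraries (7.33 and 9.59 TPM) below both of WT. It passed under median-of-ratios scaling (-0.52, adjusted p 0.016), after scaling without mitochondrial genes (0.0255), and without the library labelled KO ZT4 A (0.0448), KO ZT4 B (0.0449) or KO ZT8 B (0.0196). Ifit3 passed at ZT12 without KO ZT12 B (0.0366).

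At ZT16 all 9 members had a higher mean in KO, with log2 differences of 0.06 to 0.42 beside a median of 0.16 over all genes, and 8 of 9 under median-of-ratios scaling. At ZT20 all 9 were lower in KO, by differences of -0.22 to -0.04 beside 0.09 over all genes, and 9 of 9 in both other scalings of the same libraries. As standardized log2 values averaged over the members, WT ZT20 A stood at -0.87 and WT ZT20 B at 0.81. KO ZT20 A and B stood at -1.05 and -0.02, so the signs at ZT20 depend on WT ZT20 B. The members move together within libraries, as shown next, so 9 equal signs at a time are not 9 separate observations, and none of these differences passed the test.

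The members varied together between the libraries of a group. On log2(TPM + 0.1), as deviations from the 12 group means, the 36 pairs of members had a median Pearson r of 0.70 (0.33 to 0.85, Spearman median 0.67), and 32 pairs were over 0.5. Between members and all other genes tested the median was 0.13, and 10.6% were over 0.5. With 2 libraries per group these values rest on 12 library differences and are a description. Under median-of-ratios scaling the median was 0.63, beside -0.01 with other genes, and with both libraries of 1 group left out in turn it ran from 0.64 to 0.76. Over the 24 libraries as they stand it was 0.57. Irf7 with Ifit1 and with Ifit3 had the highest pairwise value (0.85 each), and Irf1 with Oasl2 the lowest (0.33). Irf1 had the lowest median with the other 8 members (0.53) and Irf7 the highest (0.80).

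**Figure D3:**
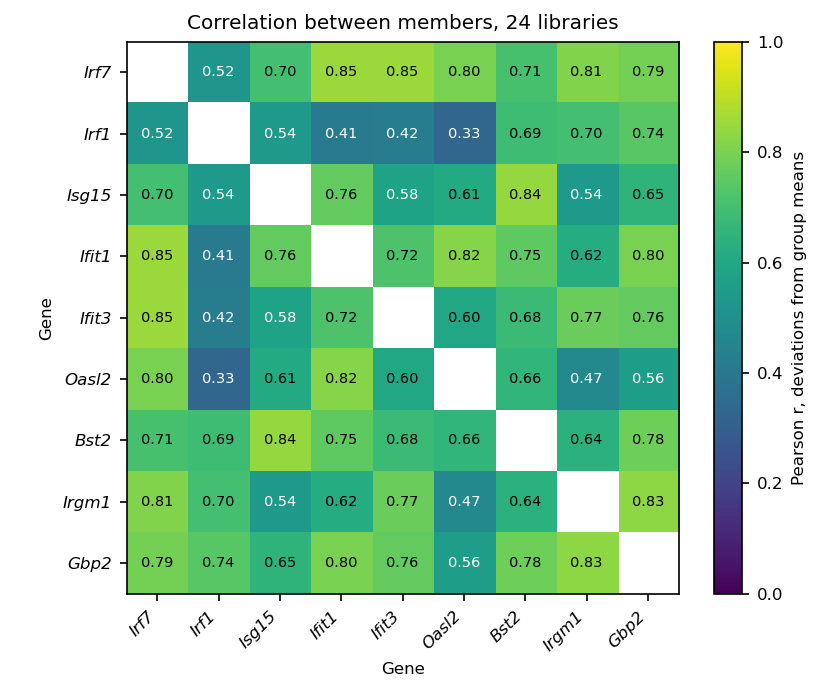
Pearson r between each pair of genes on deviations from the group means of log2(TPM + 0.1), over 24 libraries, with darker cells for lower r. All 36 pairs are above 0, from 0.33 (Irf1 with Oasl2) to 0.85 (Irf7 with Ifit1 and Ifit3), and the row of Irf1 holds the 3 darkest cells.

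In single groups this showed as 1 library above the other for every gene. At KO ZT12, library A exceeded library B for all 9 members, with log2 differences of 0.19 to 1.28 and a median of 0.56, while the median over all genes was 0.08. Ifit1 stood there at 2.45 and 0.953 TPM, Gbp2 at 6.91 and 3.35, and Ifit3 at 18.6 and 12.6. At KO ZT0 library A was the higher for all 9 (median 0.47, all genes -0.01), and at WT ZT20 library B was the higher for all 9 (median of A minus B -0.34, all genes -0.01). In 6 of 12 groups 8 or 9 members shared a direction. As standardized log2 values averaged over the members, KO ZT12 A was the highest library (1.72) and KO ZT0 B the lowest (-1.21).

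**Figure D4:**
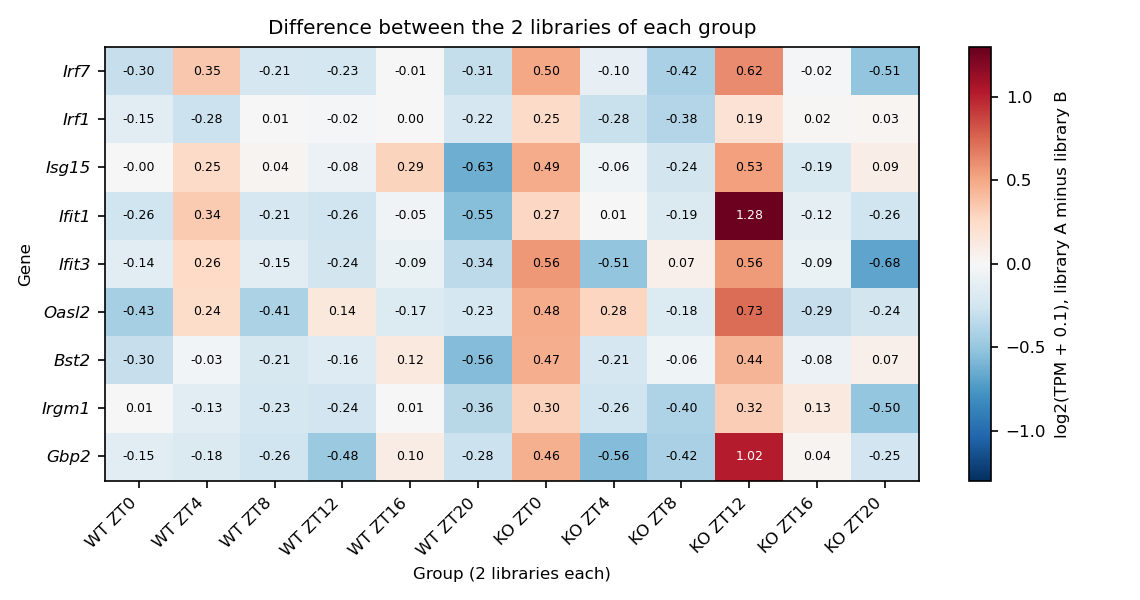
Difference in log2(TPM + 0.1) between library A and library B (colour and printed value) for each gene (rows) in each of the 12 groups (columns). Columns KO ZT0 and KO ZT12 are red and WT ZT20 is blue for all 9 genes, with the largest value, 1.28, for Ifit1 at KO ZT12.

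This spread was wider than that of other genes. The within-group SD had a median of 0.25 log2 units over the members, from 0.14 for Irf1 to 0.32 for Ifit1. It was 0.15 over all genes tested and 0.16 over the 8193 genes with means in the members' range of 1.58 to 21.5 TPM. The spread of 8 of 9 members was thus above both medians, and Irf1 below them.

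Markers of other cells were measured beside these values. The summed TPM of 14 macrophage and other leukocyte markers was 86.6 to 197 (median 105) in WT and 74.1 to 113 (median 98.2) in KO, none of the 14 at 0 in every library. The higher WT sums sat in the B libraries, with 86.6 to 106 TPM in the 6 WT A libraries and 103 to 197 in the 6 WT B libraries, B being above A at 6 of 6 times. In KO, B was above A at 2 of 6 times. Of the 13 tested, 7 were lower and 0 higher in KO, among them Adgre1, a macrophage surface marker, with a log2 change of -0.54 (SE 0.14, adjusted p 0.00327). The members' median log2 change was 0.109 in the same fit. The sum of 6 B and plasma cell markers was 5.61 to 25.9 TPM in WT A, 22.4 to 122 in WT B and 6.27 to 20.3 in KO, with Jchain, of secreted antibodies, lower by a log2 change of -2.18 (SE 0.74, adjusted p 0.0175). Of 10 T and NK cell markers only 2 averaged 1 TPM or more and were tested. Trac, a T cell receptor gene, was higher in KO (0.66, SE 0.17, adjusted p 0.00312). Cd3g, the other, was not called (0.15, SE 0.32, adjusted p 0.706), so a change of the list was not shown. Kidney cell markers were counted too. Higher in KO were 5 of 5 podocyte markers (5 under median-of-ratios scaling) and 9 of 9 distal tubule and collecting duct markers (8). So were 6 of 9 endothelial markers (2), and of 8 proximal tubule markers 3 were higher and 3 lower (1 and 4). Of all genes tested, 50.9% were higher and 10% lower in KO, and 22.1% and 22.2% under that scaling. The endothelial counts lie near those shares, and no list was tested as a set. Over 24 libraries the leukocyte sum had r = 0.37 with the members' mean (0.55 on deviations from group means), the mitochondrial share of TPM -0.12 (0.01), and the median-of-ratios factor 0.37 (0.52). The leukocyte sums of libraries A and B were 102 and 97.7 TPM at KO ZT0, 107 and 74.1 at KO ZT12 and 100 and 134 at WT ZT20. There all 9 members were higher in the library with the higher sum. At KO ZT16 and KO ZT20 the sum was higher in A and 6 of 9 members in B. At WT ZT4 and WT ZT16 the sum was higher in B and 5 of 9 members in A. The part of these sums, shares and factors in the members' values was not tested.

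The genes most like the members' mean over the 24 libraries were mostly other interferon-induced genes, the gene model Gm43302 being undescribed here. Among all other genes tested, the highest r belonged to Gbp4 (0.85), a guanylate-binding protein, Irgm2 (0.82), a relative of Irgm1, Slfn2 (0.80), a Schlafen family gene, Ifi47 (0.79), an interferon-gamma-induced GTPase, Tap1 (0.78), the peptide transporter of antigen presentation, and Gm43302 (0.78). On deviations from group means these 6 had r of 0.78 to 0.86. Irgm2, Gbp4 and Gm43302 have close relatives whose reads may be shared, which holds for Ifit1, Ifit3 and Gbp2 among the members too. Ifit3b, the near copy of Ifit3, stood at 3.34 TPM with a log2 change of 0.08 (SE 0.08, adjusted p 0.385).

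Upstream in the pathway, interferon ligands were at or near 0. None of 11 ligand genes reached a mean of 1 TPM, 6 were listed at 0 in all 24 libraries (Ifna1, Ifna2, Ifna4, Ifna5, Ifna6 and Ifne), and Ifng had a mean of 0.0552 TPM. Of 19 receptor and JAK-STAT genes tested, 7 were higher and 0 lower in KO, beside 50.9% and 10% of all genes, with a median log2 change of 0.139. Under median-of-ratios scaling 1 was higher and 3 lower, beside 22.1% and 22.2% of all genes, with a median of -0.008. The receptor chains Ifnar2 (15.4 TPM ± 1.22 in WT, 18.5 ± 1.66 in KO, SD, n = 12 each, log2 change 0.26, SE 0.05, adjusted p 0.000172) and Ifngr1 (0.21, SE 0.06, adjusted p 0.00356) and the tyrosine phosphatase Ptpn2 (0.24, SE 0.04, adjusted p 6.49e-05), had the smallest p-values, and of these only Ifnar2 passed under median-of-ratios scaling (adjusted p 0.0404).

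Among 18 nucleic acid sensors and adaptors tested, 7 were higher and 0 lower, beside 50.9% and 10% of all genes. The median was 0.14, against 0.148 over all genes. Under median-of-ratios scaling 2 were higher and 4 lower, beside 22.1% and 22.2% of all genes. Ddx58, which encodes the RNA sensor RIG-I, changed by 0.37 on the log2 scale (SE 0.08, adjusted p 0.000485), Tlr3, a sensor of double-stranded RNA, 0.27 (SE 0.06, adjusted p 0.000687), and Mavs, the adaptor of RIG-I, 0.22 (SE 0.06, adjusted p 0.0023). Ddx58 and Tlr3 passed under median-of-ratios scaling too (0.00746 and 0.0419) and Mavs did not (0.171). Of 8 other IRF family and partner genes tested, 3 were higher and 0 lower (1 and 1 under that scaling), beside those same shares. Their median was 0.149, near the 0.148 of all genes. Irf2bp2, a partner of the repressor IRF2, rose by a log2 change of 0.49 (SE 0.09, adjusted p 0.000167), passing under that scaling too (0.00358), and Irf2bp1 by 0.21 (SE 0.05, adjusted p 0.000703), where it did not (0.172). Irf2bp2 was also called rhythmic in WT (peak at 22.9 h, adjusted p 0.0026) and not in KO (0.547). Its difference in rhythm was called (adjusted p 0.0437), as for 0.629% of all genes.

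Among 53 other type I interferon-stimulated genes tested, 19 were higher and 4 lower in KO, beside 50.9% and 10% of all genes. Their median log2 change was 0.091, below the 0.148 of all genes. Under median-of-ratios scaling 8 were higher and 10 lower, beside 22.1% and 22.2% of all genes. The median was then -0.051, against 0.002. The smallest p-values for a rise were those of Shisa5 (0.31, SE 0.04, adjusted p 1.08e-05), a membrane protein of the endoplasmic reticulum, Ifit1bl1 (0.7, SE 0.11, adjusted p 4.54e-05), an Ifit1-like gene at 1.06 TPM, and Tor3a (0.41, SE 0.08, adjusted p 0.000137), a torsin-family ATPase. All 3 passed in both scalings. Those for a fall were Parp10 (-0.6, SE 0.1, adjusted p 6.03e-05), a mono-ADP-ribosyltransferase, Trim34a (-1.29, SE 0.26, adjusted p 0.000319), a TRIM family gene, and Rnf213 (-0.26, SE 0.06, adjusted p 0.000588), a large ubiquitin ligase, which were lower in both scalings. In WT, 8 of these 53 (15.1%) were called rhythmic, near the 13.7% of all genes tested, among them Cmpk2 (0.93 log2 units from trough to peak, peak at 21.6 h, adjusted p 0.00116) and its neighbour Rsad2, the antiviral enzyme viperin (0.94, 22.1 h, adjusted p 0.00429), chosen for naming after their values were seen. Others of the 8 peaked in the day, with Parp12 at 6.49 h, Ifit1bl1 at 7.12 h, Parp10 at 9.7 h and Oas1c at 10.3 h, so the called genes shared no one peak time.

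Of 14 interferon-gamma-induced GTPases and chemokines tested, 2 were higher and 1 lower, beside 50.9% and 10% of all genes. Under median-of-ratios scaling 0 were higher and 4 lower, beside 22.1% and 22.2%. The medians were 0.027 and -0.116, against 0.148 and 0.002 over all genes. Gbp3 (0.44, SE 0.14, adjusted p 0.011) and Gbp7 (0.26, SE 0.1, adjusted p 0.0291), both guanylate-binding proteins like Gbp2, were the higher pair, and neither passed under median-of-ratios scaling (0.0765 and 0.298). Gvin1, a very large interferon-induced GTPase gene with close copies, fell from 2.15 TPM ± 0.778 in WT to 0.276 ± 0.536 in KO (SD, n = 12 each, log2 change -3.49 on the log2(TPM + 0.1) scale, SE 0.48, adjusted p 6.61e-06), and was listed at 0 in 8 libraries. Gvin1 and Trim34a lie on chromosome 7 with Arntl, 6.99 and 8.95 Mb away from it, and the part of that position in their difference was not tested. Among the members Irf7 alone shares that chromosome, 27.9 Mb from Arntl, and its interval includes 0.

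**Figure D5:**
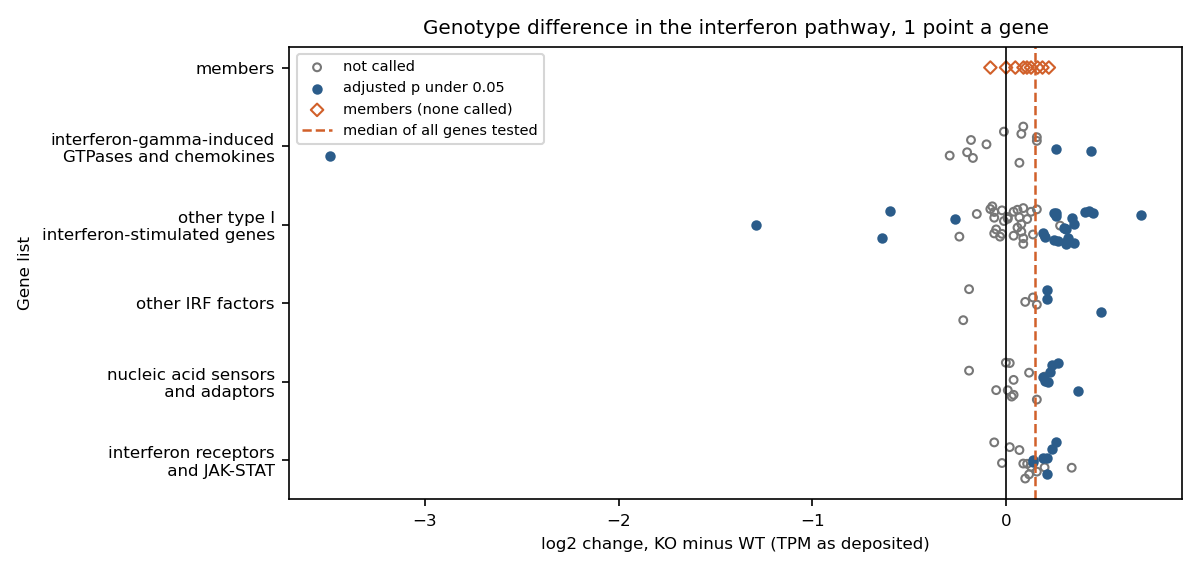
Log2 change between genotypes, KO minus WT (horizontal axis), of each tested gene in 5 lists of interferon pathway genes and of the 9 members (rows), filled where the adjusted p was under 0.05, the dashed line marking the median of all genes (0.148). Most genes lie near the dashed line, the members between -0.08 and 0.22, and Gvin1 (-3.49) and Trim34a (-1.29) stand apart on the left.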

How the data were processed

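The authors deposited TPM per transcript for the 24 kidney libraries, and the submitters' processing notes name kallisto 0.42.4 and the builds mm10 and GRCm38. The index and annotation are not given in the sources used here. Transcripts were summed to genes by Ensembl identifier through GENCODE M21 (GRCm38). Of 88198 transcripts 86119 matched, and the rest held 1.35% to 2.24% of TPM per library. TPM was analysed as log2(TPM + 0.1) for genes averaging 1 TPM or more in limma 3.58.1 (R 4.3.3), with trend and robust variance, Benjamini-Hochberg adjustment over 12874 genes and a threshold of 0.05. Scripts were tested on simulated data. Single coefficients were tested two-sided and rhythms by F tests. Fits left out no library except where stated.

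The members and the gene lists were chosen with earlier results of these data known. Named were all 9 members, up to 3 genes per list and direction with the smallest genotype p among those called with 1 sign at 6 of 6 times, the 6 genes most like the members' mean, Arntl, Cry1 and Nr1d1, and the called marker genes with the largest change. The 4C-seq tables were not used here. Alternatives were other pseudocounts, filters, scalings and models, each library left out, and, chosen after seeing the data, protein-coding transcripts only and the settings of the correlation between members.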

Additional observations from a re-analysis of the deposited data

How the results depend on the processing

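The count of members called, 0 in each test, moved as follows. For the genotype difference it was 1 with a minimum mean of 5 TPM (Ifit3, adjusted p 0.0488), with protein-coding transcripts only (Ifit3, 0.0487), with no time term (Ifit3, 0.0385) and under median-of-ratios scaling (Irf1), and 0 to 3 with 1 library left out. For a WT rhythm it was 1, each time Irf1, with a minimum mean of 5 TPM, under both other scalings, in WT alone, with protein-coding transcripts only and under the replicate block, and 0 to 1 with 1 library left out. For a KO rhythm and for a single time it was 0 to 1 with 1 library left out, and for a single time 1 under both other scalings. The counts for a difference in rhythm and for a difference varying with time stayed at 0 in each alternative run. Changes that reversed were, under median-of-ratios scaling, Irf7 (-0.1), Ifit1 (-0.03), Oasl2 (-0.05), Irgm1 (-0.15) and Gbp2 (-0.02), and, scaled without mitochondrial genes, Irf7 (-0.02) and Irgm1 (-0.06). Irgm1, at 0.00, ran from -0.02 to 0.04 with 1 library left out and was 0 with protein-coding transcripts only. Receptor and JAK-STAT genes called numbered 4 under median-of-ratios scaling against 7, and GTPases and chemokines 5 with no filter against 3. The cause of these moves was not tested.

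Over all genes, the A minus B deviations of 66 pairs of groups had r of -0.323 to 0.338 (median 0.0223, 21 over 0.1). The letters A and B were not modelled as pairs in the main fits, since the labels do not say what they mark. They are not free of differences, since the leukocyte and the B and plasma cell marker sums were higher in B at 6 of 6 times in WT, and the members' mean at 4 of 6. With the letter as a replicate block, the calls were 0 for the genotype difference and 1 for a WT rhythm (Irf1, adjusted p 0.0499). TPM keeps no depth, so the counting error of a gene as low as Ifit1 is unknown.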
